A study of Mus musculus with 47 samples.

Results

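The 10 genes studied here move chloride, bicarbonate, potassium and protons across the intestinal epithelium and were followed in mouse small intestine, separately in crypts and in villi. They were Slc12a2, Kcnn4, Cftr, Kcnq1, Kcne3, Slc26a3, Slc26a6, Slc9a3, Car4 and Clca4a. Their probe sets were those whose only gene symbol in the probe annotation is one of these names, 19 of 45101 on the array, and all 19 passed the filter on low values. Each gene was then read from 1 probe set, the one with the highest mean over the arrays that measured it, which gave 10 of 13509 genes.

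All mice were C57BL/6. A genetic arm held mice of 3 months on the purified diet Ain76A, which were wild type, Apc1638N/+ or p21-/-. The other arm held wild-type animals randomised at weaning to Ain76A, NWD1 or NWD2 and kept on that diet for 1 year. NWD1 is known as a purified Western-style diet, richer in fat and poorer in calcium and vitamin D than Ain76A, and NWD2 as a version with calcium and vitamin D raised. Apc1638N/+ mice carry 1 truncated allele of the tumour suppressor gene Apc, and p21-/- mice lack the cell cycle inhibitor encoded by Cdkn1a. Crypts and villi were each hybridised to 4 arrays per condition, except villi on NWD2 with 3, which makes 12 groups and 47 arrays. The labels name neither the segment of the small intestine nor the animal behind each array, so p-values measure the spread between these samples, which may be technical.

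Fluid secretion in the gut starts in the crypt. Slc12a2, also called NKCC1, is the basolateral cotransporter that loads cells with chloride, and Cftr is the apical channel through which chloride and bicarbonate leave. Kcnn4 and the pair of Kcnq1 with its accessory subunit Kcne3 are potassium channels whose current keeps the driving force for chloride exit. Absorption of salt is mainly a task of surface and villus cells: Slc9a3, also called NHE3, exchanges luminal sodium for protons, and Slc26a3 and Slc26a6 are apical exchangers that take up chloride for bicarbonate. Car4 is a membrane-bound carbonic anhydrase, which interconverts carbon dioxide and bicarbonate at the cell surface, and Clca4a belongs to a family named as calcium-activated chloride channel regulators.

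Levels are normalised log2 signals and are compared only within a gene, since probe sets differ in sensitivity. Differences are log2 differences ± SE from limma, and a gene is called at an adjusted p under 0.05 over all genes tested in that comparison. The arrays held 14814 to 23355 measured probe sets each, with 14814 to 17373 in p21-/- crypts beside 19091 to 22078 in wild-type crypts. A probe set of Cdkn1a was blank on all 8 p21-/- arrays and measured on the other 39. Another was measured on all arrays, at 11.70 ± 0.39 in p21-/- and 12.47 ± 0.71 in wild-type crypts and 13.11 ± 0.29 and 12.74 ± 0.25 in villi (SD, n = 4 each). Whether the latter lies outside the deleted part of the gene was not tested. Cell cycle genes, which mark the dividing cells of the crypt, checked the tissue labels: the summed level of 9 of them was 13.64 to 15.56 on the 24 crypt arrays and 10.43 to 13.28 on the 23 villus arrays. Villus arrays 1 and 2 on NWD1 and 1 on NWD2 stood nearest to crypts in several of the 10 genes, and their effect is given beside the results.

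Of the 10 genes, 5 were measured on all 47 arrays: Slc12a2, Cftr, Slc26a3, Slc26a6 and Slc9a3. Kcnn4, Kcne3 and Car4 were measured on all 24 crypt arrays but on 17, 20 and 19 of 23 villus arrays. Kcnq1 was measured on 23 crypt arrays and 12 villus arrays, with none of 4 in p21-/- villi and 1 of 4 in both wild-type and Apc1638N/+ villi. Clca4a showed the opposite pattern, with 21 of 24 crypt arrays and all 23 villus arrays. A blank has no stated meaning in the sources used here, so blanks were kept as blanks and a gene was tested only with at least 3 measured arrays in each group.

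**Figure D1:**
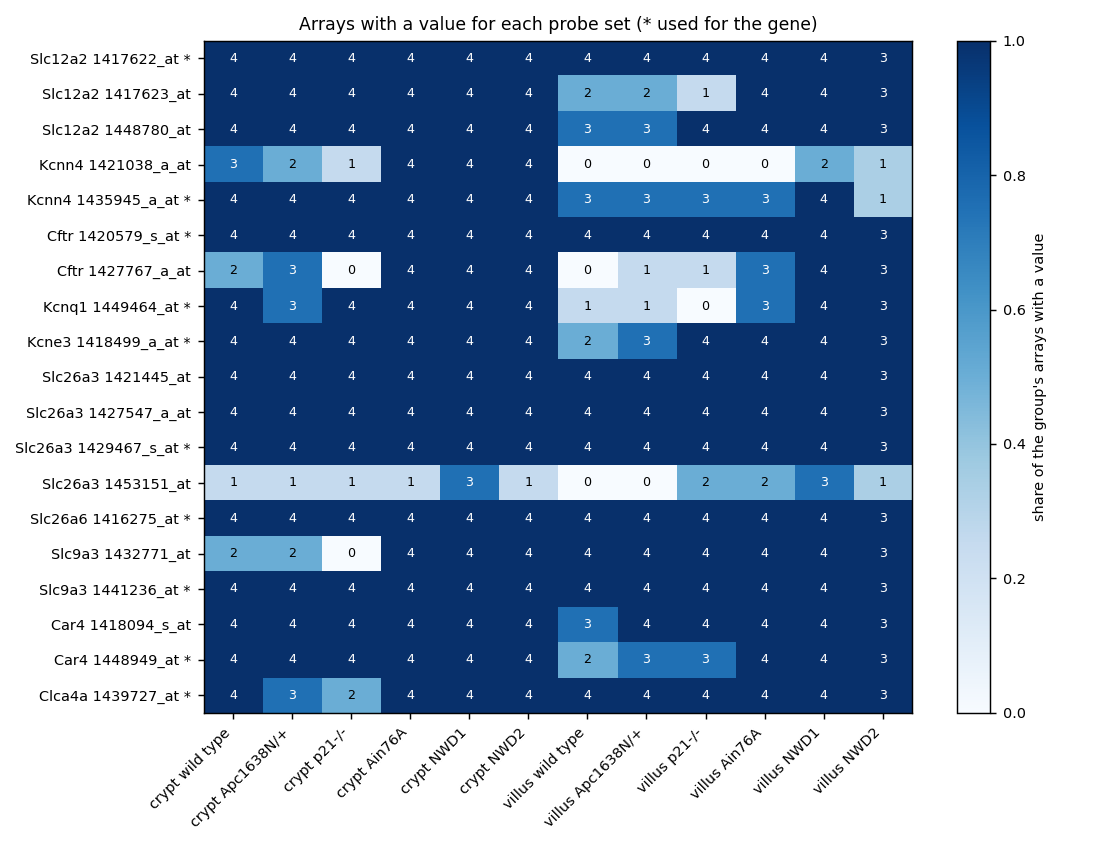
Number of arrays with a value for each of the 19 probe sets in each of the 12 groups, shaded by the share of the group's arrays; stars mark the probe set used for the gene. Blanks of Kcnq1 lie mostly in the villi at 3 months, and blanks of Clca4a lie in the crypts of Apc1638N/+ and p21-/- mice.

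Slc12a2 separated crypts from villi in every condition. In wild-type mice at 3 months the crypt levels were 13.72, 12.62, 13.02 and 12.48 and the villus levels 7.78, 9.64, 8.98 and 10.13. The 2 sets do not overlap, and the mean difference was 3.82 ± 0.41, or 14.2-fold (limma adjusted p = 3.03e-09). On Ain76A for 1 year it was 3.78 ± 0.41 and in the genetic arm 3.00 ± 0.41 in Apc1638N/+ and 3.39 ± 0.41 in p21-/- mice. The smallest differences were those on NWD1, 2.40 ± 0.41, and NWD2, 1.86 ± 0.45 (limma adjusted p = 0.00457). In the order of the 12 group means, the 6 crypt groups came first, from 13.05 ± 0.49 (SD, n = 4) on Ain76A for 1 year to 11.99 ± 0.51 (n = 4) on NWD2. Neighbouring crypt groups overlapped, and the only gap between neighbours was that from NWD2 crypts to NWD1 villi at 10.36 ± 0.84 (n = 4).

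Kcnn4, the calcium-activated potassium channel, had the widest gap of the crypt genes at 3 months. In p21-/- mice the crypts measured 13.16, 12.98, 12.88 and 12.64 and the 3 villus arrays with a value 8.57, 8.14 and 8.25. Every crypt array lay above every villus array, by a mean of 4.60 ± 0.37, or 24.3-fold. In wild type at 3 months the difference was 4.01 ± 0.37, in Apc1638N/+ mice 3.46 ± 0.37, on Ain76A for 1 year 3.73 ± 0.37 and on NWD1 2.91 ± 0.35. On NWD2 it could not be tested, since 1 of 3 villus arrays had a value. That value, 10.02, lay just below the lowest NWD2 crypt array at 10.20.

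Cftr was higher in crypts by a margin that varied with the condition. Wild-type crypts at 3 months measured 12.26, 11.94, 11.51 and 11.47 and villi 7.89, 9.11, 8.85 and 10.11, a difference of 2.81 ± 0.36. Apc1638N/+ mice had 2.11 ± 0.36, Ain76A at 1 year 1.64 ± 0.36 and p21-/- mice 1.36 ± 0.36, each called. On NWD1 the difference was 0.82 ± 0.36 (limma adjusted p = 0.0641) and on NWD2 0.62 ± 0.39 (0.310), neither called, although crypts and villi did not overlap on either diet. With only the groups compared in the fit, both passed (limma adjusted p = 0.000729 and 0.0362). Cftr crypt means lay close together, from 11.13 ± 0.20 in p21-/- mice to 11.79 ± 0.37 in wild type (SD, n = 4 each). Its villus means ran from 8.99 ± 0.91 in wild type at 3 months to 10.83 ± 0.23 on NWD2 (n = 3), so most of the spread between conditions was in the villi. A second Cftr probe set, blank in all 4 wild-type villus arrays at 3 months, gave -0.33 ± 0.35 on NWD2, opposite in sign to the first and not called.

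Kcnq1 and Kcne3 encode the pore and the accessory subunit of 1 channel. For Kcne3, crypts on Ain76A for 1 year measured 12.42, 12.17, 12.25 and 12.05 and villi 8.77, 6.86, 9.0 and 8.48, without overlap. The difference was 3.95 ± 0.46 there, 3.58 ± 0.46 in p21-/- mice, 2.97 ± 0.50 in Apc1638N/+ mice, 2.71 ± 0.46 on NWD1 and 2.18 ± 0.50 on NWD2, all called, with overlap on NWD2 alone. In wild type at 3 months Kcne3 had a value on 2 of 4 villus arrays, 7.53 and 8.62, below all crypt arrays at 10.09 to 11.78, and was not tested. For Kcnq1, crypts on Ain76A for 1 year measured 11.83, 11.43, 11.45 and 11.58 and the 3 villus arrays with a value 8.55, 9.46 and 9.66. The crypt excess was 2.35 ± 0.37 there, 1.93 ± 0.34 on NWD1 and 1.49 ± 0.37 on NWD2, all called, and no test was possible at 3 months.

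Car4 was also a crypt gene here. Crypts on Ain76A for 1 year measured 12.29, 12.47, 12.46 and 13.02 and villi 10.95, 8.72, 10.29 and 9.89. No villus array reached a crypt array, and the difference was 2.59 ± 0.50. It was 3.00 ± 0.54 in Apc1638N/+, 1.97 ± 0.54 in p21-/- mice, 1.53 ± 0.50 on NWD1 and 1.65 ± 0.54 on NWD2, all called. A second probe set of Car4, measured on 3 wild-type villus arrays, gave 3.74 ± 0.49 in wild type at 3 months, where the first could not be tested.

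Slc26a6 and Slc9a3, the apical anion and sodium-proton exchangers, ran the other way. Slc26a6 in wild type at 3 months measured 12.39, 13.62, 13.35 and 13.31 in crypts and 14.94, 14.46, 14.60 and 14.28 in villi, a crypt minus villus difference of -1.40 ± 0.29. All 4 villus arrays were above all 4 crypt arrays. The difference was -1.65 ± 0.29 in Apc1638N/+, -1.89 ± 0.29 in p21-/-, -1.87 ± 0.29 on Ain76A and -0.90 ± 0.29 on NWD1, each called. On NWD2 it was -0.53 ± 0.31 (limma adjusted p = 0.263), and the groups overlapped.

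Slc9a3 on Ain76A for 1 year measured 10.50, 11.22, 10.96 and 11.37 in crypts and 12.55, 12.83, 13.17 and 13.97 in villi. Every villus array was above every crypt array, with a difference of -2.11 ± 0.38. Wild type at 3 months had -1.50 ± 0.38, Apc1638N/+ -1.22 ± 0.38, p21-/- -1.74 ± 0.38 and NWD1 -1.08 ± 0.38, all called, and NWD2 -0.64 ± 0.41 (limma adjusted p = 0.328). The Apc1638N/+ call was lost without villus array 2 (-0.87, limma adjusted p = 0.0753). The NWD1 call was lost without crypt array 4 (-0.86, limma adjusted p = 0.0958) or villus array 3 (-0.93, limma adjusted p = 0.0714). A second Slc9a3 probe set passed only on Ain76A, at -0.98 ± 0.41 (limma adjusted p = 0.0477).

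Clca4a had the largest difference of the 10 genes. On Ain76A for 1 year, crypts measured 9.06, 9.12, 11.78 and 8.29 and villi 15.36, 15.58, 15.45 and 15.32, or -5.86 ± 0.63 (58.3-fold). The other tested differences were -5.64 ± 0.63 in wild type at 3 months, -4.88 ± 0.68 in Apc1638N/+, -5.77 ± 0.63 on NWD1 and -4.69 ± 0.68 on NWD2. Villus levels were 14.57 and above on all but 2 of 23 arrays, with 12.27 on p21-/- villus array 3 and 12.43 on NWD2 villus array 1. Without the latter, left out for its low value, the NWD2 difference was -5.56 ± 0.72, and that choice enlarges it. Because 2 of 4 p21-/- crypt arrays were blank, at 10.08 and 9.97 on the others, no test was made in p21-/- mice.

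Slc26a3, the main chloride-bicarbonate exchanger of the surface epithelium, was called between crypts and villi in 1 condition, wild type at 3 months. There, crypts measured 13.32, 13.59, 13.15 and 13.56 and villi 11.44, 12.35, 11.39 and 12.74, with crypts higher by 1.42 ± 0.40 (limma adjusted p = 0.00324). The difference did not pass in the other 5 conditions, with values from 0.20 ± 0.40 on NWD1 to 0.87 ± 0.40 in Apc1638N/+ mice. On Ain76A for 1 year it was 0.36 ± 0.40, with crypts at 12.53 to 12.80 and villi at 12.09 to 12.50 without overlap, and it passed with only the groups compared in the fit (limma adjusted p = 0.0221). In Apc1638N/+ mice it passed without villus array 1 (1.22, limma adjusted p = 0.0156) or villus array 4 (1.10, 0.0394). Apc1638N/+ villi were uneven, with 10.23 on array 3 and 12.69 to 13.38 on the others.

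**Figure D2:**
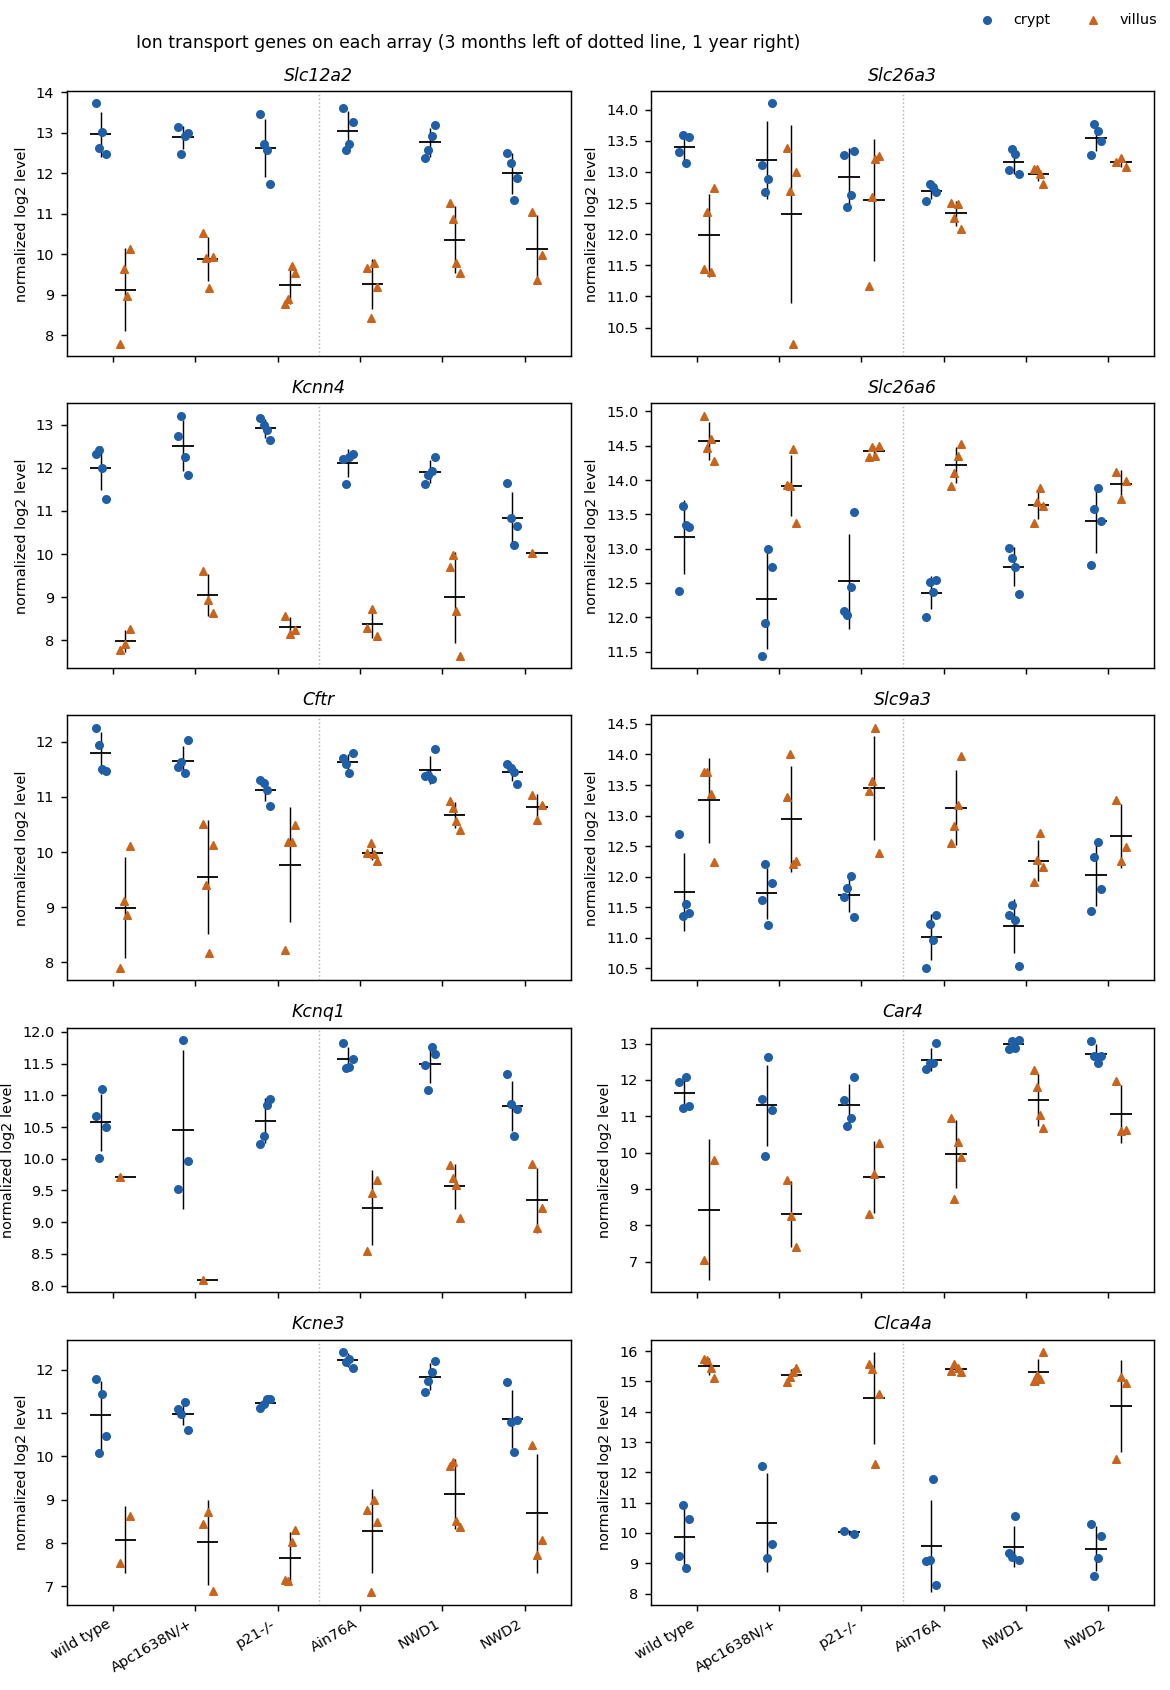
Normalised log2 level of each gene on each array (circles crypts, triangles villi; horizontal lines group means, vertical lines ± SD) in the 6 conditions, with 3 months to the left of the dotted line and 1 year to the right; blanks are not drawn. Slc12a2, Kcnn4, Kcne3 and Car4 are higher in crypts and Clca4a is higher in villi, while Slc26a3 overlaps in several conditions.

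Counted together, the called members were 7 of 7 tested in wild type at 3 months (46.3% of all genes tested were called), 8 of 9 in Apc1638N/+ (41.5%) and 7 of 8 in p21-/- mice (46.1%). They were 9 of 10 on Ain76A for 1 year (52.6%), 8 of 10 on NWD1 (41.8%) and 5 of 9 on NWD2 (12.5%). Crypt and villus arrays did not overlap for 6 of 7, 8 of 9 and 7 of 8 members in wild type, Apc1638N/+ and p21-/- mice, where 32.6%, 26.7% and 31.9% of all genes did not. For Ain76A, NWD1 and NWD2 it was 10 of 10, 9 of 10 and 6 of 9 members beside 59.4%, 53.8% and 30.3%. The members were chosen as known transport genes with earlier results of these data in view, so these shares describe the list. On NWD2 the 5 called were Slc12a2, Kcnq1, Kcne3 and Car4 in crypts and Clca4a in villi, and this count rested on few arrays. Without NWD2 villus array 2, only Clca4a was called, and without villus array 3, Slc12a2 and Clca4a. Slc12a2 then stood at 1.48 without array 2 (limma adjusted p = 0.0891), Kcnq1 at 1.27 and 1.43 (0.0891 and 0.0617) and Kcne3 at 1.70 and 1.88 (0.0763 and 0.0597). Car4 was lost without villus array 2 or 3 (limma adjusted p = 0.212 and 0.235) or crypt array 1, 2 or 4 (0.125, 0.0626 and 0.0735). Car4 on NWD1 was lost without villus array 4 (1.28, limma adjusted p = 0.0639).

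Without NWD2 villus array 1, where the crypt genes were highest, the same number of 5 was called and the differences were larger: Slc12a2 2.31, Kcne3 2.96 and Car4 2.11. Without NWD1 villus arrays 1 and 2, Slc12a2 stood at 3.11, Kcnn4 at 3.75, Kcne3 at 3.41 and Car4 at 2.12. These arrays were chosen for their high values of several of these genes. Larger differences follow from that choice and are no check of the calls. In these bulk samples fewer cells of a type and less messenger per cell cannot be told apart.

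**Figure D3:**
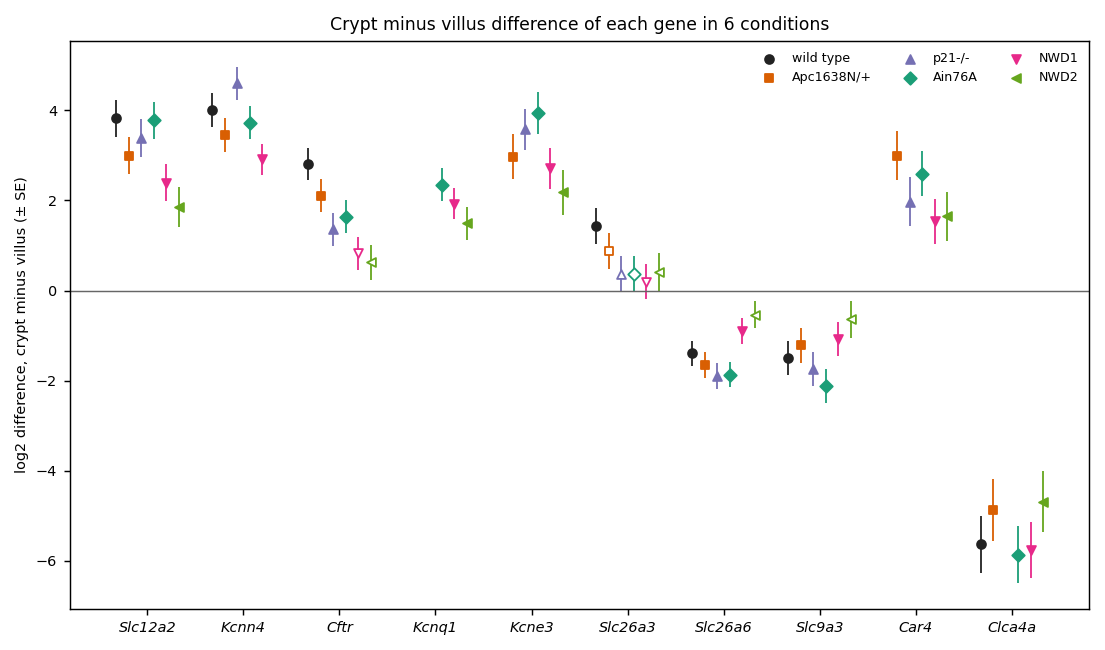
Crypt minus villus log2 difference ± SE (y axis) for each gene (x axis) in 6 conditions; filled symbols are called by limma, open symbols are not, and untested pairs are absent. Slc12a2, Kcnn4, Kcne3 and Car4 lie above 0 wherever tested and Slc26a6, Slc9a3 and Clca4a lie below 0, and Slc12a2 and Kcne3 are lowest on NWD2.

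Promoters are shown for 4 members whose group means, by the probe set used, differed the same way in all 6 conditions. Kcnn4 and Cftr were higher in crypts and Slc26a6 and Slc9a3 higher in villi, so that genes with opposite patterns can be compared. For Kcnn4 on NWD2 this rests on 1 villus array. Kcne3, Car4 and Slc26a3 also differed one way in all 6 conditions by the probe set used, and the 4 shown are those in which a motif below was found. So did Slc12a2 and Clca4a, for which no RefSeq promoter was at hand. The RefSeq table holds promoters of 7 of the 10 genes. The 250 bases upstream of the start are printed 5′ to 3′ on the plus strand of GRCm38.p6. They lie at chr7:24370013-24370262 for Kcnn4, chr6:18170437-18170686 for Cftr, chr9:108853793-108854042 for Slc26a6 and chr13:74121163-74121412 for Slc9a3. Capitals mark matches to motifs of 5 intestinal factors, searched on both strands. The letters searched were CAAAGTC for Hnf4a and TTTATNG for Cdx2. For Tcf7l2 they were CTTTGAT, for Gata4 GATAAG and for the Klf family GGGNGTG.
Kcnn4: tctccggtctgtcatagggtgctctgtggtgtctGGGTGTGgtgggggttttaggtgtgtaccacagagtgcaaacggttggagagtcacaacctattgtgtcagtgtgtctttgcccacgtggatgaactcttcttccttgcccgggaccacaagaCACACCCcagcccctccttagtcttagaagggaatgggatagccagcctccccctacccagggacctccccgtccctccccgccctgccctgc
Cftr: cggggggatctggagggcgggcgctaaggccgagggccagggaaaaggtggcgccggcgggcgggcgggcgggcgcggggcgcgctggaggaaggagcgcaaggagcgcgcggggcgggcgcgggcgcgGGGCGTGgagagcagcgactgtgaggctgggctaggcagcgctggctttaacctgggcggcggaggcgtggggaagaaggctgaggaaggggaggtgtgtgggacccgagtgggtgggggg
Slc26a6: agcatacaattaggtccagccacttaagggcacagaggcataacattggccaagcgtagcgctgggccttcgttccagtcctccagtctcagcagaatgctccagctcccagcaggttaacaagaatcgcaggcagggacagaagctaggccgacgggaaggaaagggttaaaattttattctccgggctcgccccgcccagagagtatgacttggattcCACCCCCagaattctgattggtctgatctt
Slc9a3: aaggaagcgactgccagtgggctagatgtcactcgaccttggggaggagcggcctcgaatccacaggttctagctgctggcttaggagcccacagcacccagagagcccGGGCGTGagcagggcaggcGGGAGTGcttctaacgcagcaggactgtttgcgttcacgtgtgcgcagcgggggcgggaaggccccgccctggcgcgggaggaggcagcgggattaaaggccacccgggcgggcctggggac
All capitals in these sequences are GGGNGTG on either strand. Cftr and Slc26a6 hold 1 match each and Kcnn4 and Slc9a3 hold 2 each, none overlapping, at 30 to 216 bases before the start. Of 32851 promoter windows of the same length in the table, 26.1% hold that motif, and 3.84%, 9.81%, 3.21% and 6.55% hold the other motifs in the order given. No letters of the other 4 motifs were found in these 4 windows, and none of the 5 in the windows of Kcne3, Slc26a3 and Car4. The motif was found on both sides of the crypt-villus pattern.

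Crypts after 1 year on NWD2 had a lower level of the potassium channel gene Kcnn4 than crypts on Ain76A. The exchanger gene Slc26a6 was higher, and each difference went in the direction of the gene's villus level. Kcnn4 measured 12.21, 11.62, 12.26 and 12.31 in Ain76A crypts and 11.64, 10.84, 10.20 and 10.64 in NWD2 crypts. Of 4 NWD2 arrays 3 lay below all Ain76A arrays, and Kcnn4 fell by 1.27 ± 0.35 (NWD2 minus Ain76A -1.27, limma adjusted p = 0.0178). Slc26a6 measured 12.01, 12.51, 12.37 and 12.55 on Ain76A and 12.76, 13.58, 13.88 and 13.40 on NWD2. The groups did not overlap, and Slc26a6 rose by 1.05 ± 0.29 (limma adjusted p = 0.0163). These were 2 of 10 members called, while 8.58% of 9165 genes tested were called.

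In all, 5 more members had an unadjusted p under 0.05 without passing. Kcne3 measured 12.05 to 12.42 on Ain76A and 10.10 to 11.71 on NWD2 (-1.36 ± 0.46, limma adjusted p = 0.0577). Slc12a2 measured 12.58 to 13.62 and 11.34 to 12.50 (-1.05 ± 0.41, 0.101), and Kcnq1 11.43 to 11.83 and 10.36 to 11.33 (-0.73 ± 0.34, 0.178). Slc9a3 measured 10.50 to 11.37 on Ain76A and 11.44 to 12.56 on NWD2 (1.02 ± 0.38, limma adjusted p = 0.0850), and Slc26a3 12.53 to 12.80 and 13.27 to 13.77 (0.86 ± 0.40, 0.170). In these 5 genes and Slc26a6 the NWD2 and Ain76A crypt arrays did not overlap, 6 of 10 members where 25.9% of all genes tested did not. Cftr (-0.18 ± 0.36), Car4 (0.16 ± 0.50) and Clca4a (-0.08 ± 0.63) had overlapping groups, with an interval of ± 2 SE of -0.91 to 0.54 for Cftr. Among other probe sets, 1 of Slc12a2 gave -1.27 ± 0.37 (limma adjusted p = 0.0361 over all probe sets) and 1 of Kcnn4 gave -0.96 ± 0.28 (0.0480).

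With only the groups compared in the fit, 7 members passed. Both NWD2 calls were lost in several of the fits that left out 1 array, with no single array carrying either. Kcnn4 was lost without Ain76A crypt array 1, 3 or 4 or NWD2 crypt array 2, 3 or 4 (limma adjusted p from 0.0509 to 0.133, with -1.06 without NWD2 array 3). It was also lost with the scaling as deposited (-1.05, limma adjusted p = 0.0781) and with blanks set to the lowest measured value (-1.27, limma adjusted p = 0.598). Kcnn4 had no blank in these crypts, so the filled blanks lay in other groups and only the SE rose, to 0.92. Slc26a6 was lost without Ain76A crypt array 1 (0.93, limma adjusted p = 0.0798), NWD2 crypt array 2 (0.99, 0.0641) or NWD2 crypt array 3 (0.89, 0.122). Without NWD2 crypt array 1, 4 members were called, with Kcne3 at -1.64 (limma adjusted p = 0.0218) and Slc9a3 at 1.22 (0.0412) added.

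**Figure D4:**
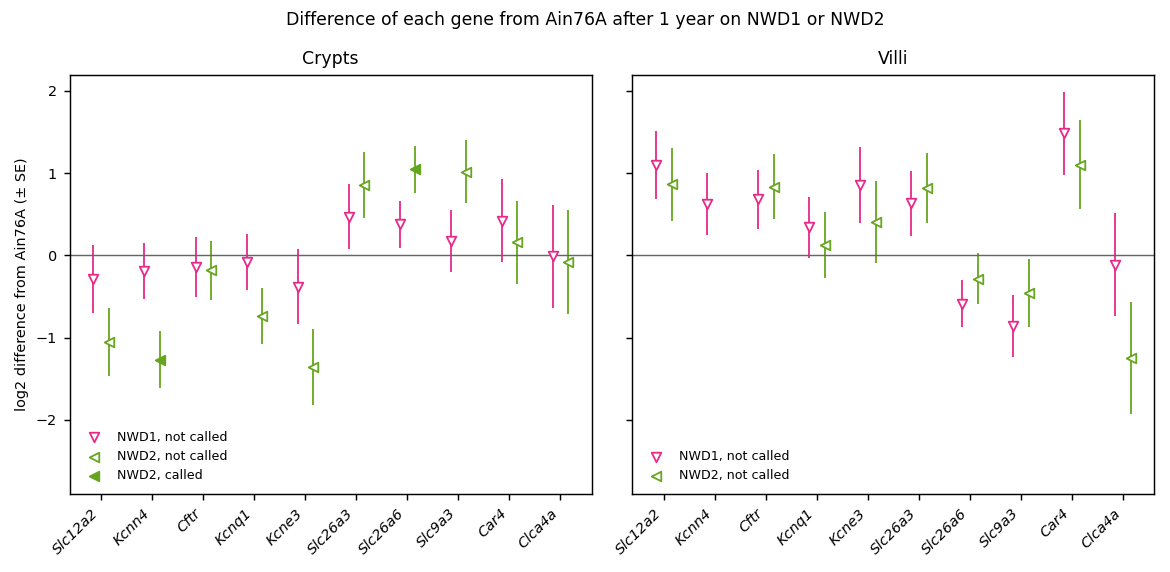
Log2 difference from Ain76A ± SE (y axis) of each gene (x axis) after 1 year on NWD1 or NWD2, in crypts (left) and villi (right); filled symbols are called by limma. In NWD2 crypts Kcnn4, Kcnq1, Kcne3 and Slc12a2 lie below 0 and Slc26a3, Slc26a6 and Slc9a3 lie above 0, with Kcnn4 and Slc26a6 called.

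Markers of cell types moved in the same crypts. Of 11 enterocyte genes tested, 10 were higher in NWD2 crypts and none lower (median 1.46), with summed levels of 18.50 to 19.08 beside 17.09 to 18.13 on Ain76A. Of 9 cell cycle genes 4 were lower and none higher (median -1.14), with summed levels of 13.64 to 14.79 beside 15.18 to 15.56. Paneth genes summed to 16.29 to 16.93 beside 16.89 to 17.40, with 1 of 7 lower. None of the enterocyte, cell cycle or Paneth genes with a kept probe set was blank in these 8 arrays. The part of these shifts in the differences of Kcnn4 and Slc26a6 was not tested.

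Across the 24 crypt arrays, after removing each group's mean, Kcnn4 followed the summed cell cycle level with r = 0.79, Kcne3 with 0.76 and Slc12a2 with 0.74. Slc26a6 ran against it with r = -0.80 and Slc26a3 with -0.57. Cftr had 0.38, and Slc9a3 (-0.09), Clca4a (0.05, 21 arrays), Car4 (0.11) and Kcnq1 (0.20, 23 arrays) did not follow it in crypts. These are descriptions over arrays that share groups and scaling. In villi the same relation had r = 0.92 for Kcne3 (20 arrays), 0.90 for Kcnq1 (12 arrays) and 0.86 for Car4 (19 arrays). Slc12a2 had 0.78 (23 arrays) and Kcnn4 0.71 (17 arrays). The others, each over 23 arrays, were Cftr (0.29), Slc26a3 (0.28), Slc9a3 (0.07), Slc26a6 (0.04) and Clca4a (-0.55).

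**Figure D5:**
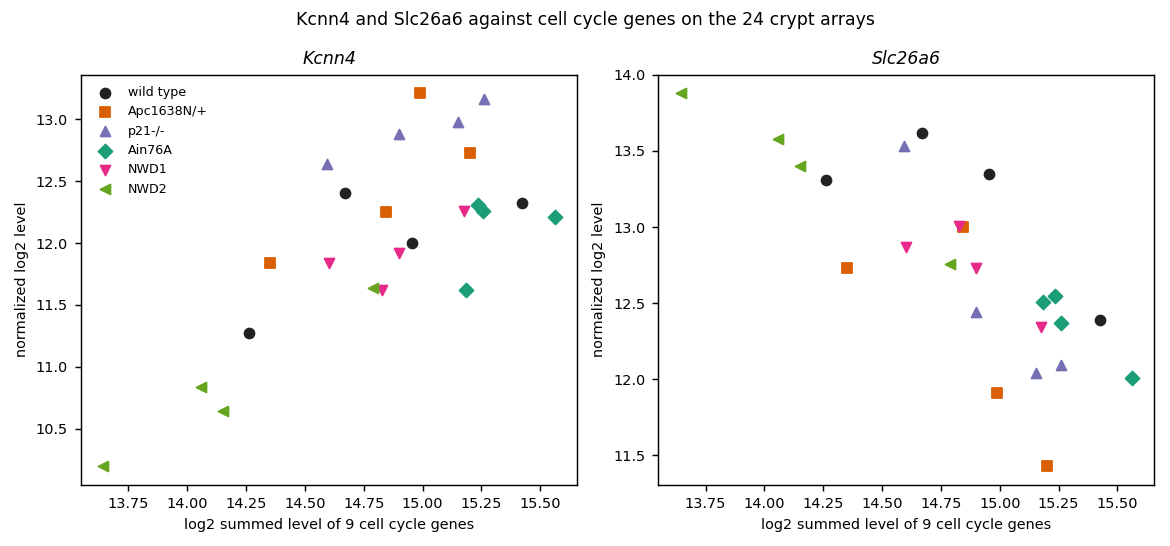
Normalised log2 level of Kcnn4 (left) and Slc26a6 (right) against the log2 summed level of 9 cell cycle genes on the 24 crypt arrays, by condition. The points keep the group means, which were removed for the correlations with the cell cycle level (r = 0.79 for Kcnn4 and -0.80 for Slc26a6). Between conditions the order can differ. Mean Kcnn4 was 12.10 on Ain76A, with cell cycle sums of 15.18 to 15.56, and 12.92 in p21-/- mice, with 14.59 to 15.26. The 4 NWD2 arrays lie at 13.64 to 14.79 on the x axis.

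NWD1 left the 10 genes uncalled in crypts, where by limma 0 of 9325 genes passed in all (0% called, 312 at an unadjusted p under 0.05). No member had an unadjusted p under 0.05 there, and differences ran from -0.38 ± 0.46 for Kcne3 to 0.47 ± 0.40 for Slc26a3. Slc26a3 measured 12.96 to 13.37 on NWD1 and 12.53 to 12.80 on Ain76A without overlap, 1 of 10 members where 7.60% of genes did not overlap.

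In villi, 0 of 10 members passed on NWD1 (0.0563% of genes called, 4 members with an unadjusted p under 0.05) and 0 of 9 on NWD2 (0.399%, 2 members). The arrays on Ain76A are the controls of both. Car4 villi measured 10.95, 8.72, 10.29 and 9.89 on Ain76A, 12.27, 11.80, 11.03 and 10.68 on NWD1 and 11.98, 10.60 and 10.62 on NWD2. The differences were 1.48 ± 0.50 (limma adjusted p = 0.740) and 1.10 ± 0.54 (0.432), and the groups overlapped. Slc12a2 villi measured 11.27, 10.87, 9.79 and 9.53 on NWD1, 1.09 ± 0.41 above Ain76A (limma adjusted p = 0.808). Without NWD1 arrays 1 and 2, chosen for their high values, the difference was 0.39, a fall that follows from the choice. Cftr villi measured 9.84 to 10.16 on Ain76A, 10.40 to 10.92 on NWD1 and 10.58 to 11.03 on NWD2, without overlap in either comparison (0.68 ± 0.36 and 0.84 ± 0.39). Slc26a3 villi did the same, with 12.09 to 12.50 on Ain76A, 12.80 to 13.04 on NWD1 and 13.08 to 13.22 on NWD2. With only the groups compared in the fit, both passed on NWD2 (limma adjusted p = 0.0283 and 0.0267). Groups without overlap numbered 3 of 10 members on NWD1, Slc26a6 being the third with lower values at 13.37 to 13.88 beside 13.92 to 14.52, where 5.99% of genes did not overlap. On NWD2 they numbered 3 of 9 members beside 22.1%, Clca4a being the third at 12.43 to 15.16 beside 15.32 to 15.58 (-1.25 ± 0.68, limma adjusted p = 0.490). In villi on NWD1, 3 of 5 Paneth genes tested were higher (median 2.43), with summed levels of 14.79 to 16.87 beside 12.14 to 14.36, and 8 cell cycle genes had a median of 0.65 with none called. The part of these markers in the villus values was not tested.

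Neither genotype moved a member past the threshold. For Slc12a2 the probe sets differed in sign: the one used gave -0.07 ± 0.41 in Apc1638N/+ crypts and the other 2 gave 0.99 ± 0.37 and 0.85 ± 0.52, none of them called. In Apc1638N/+ crypts 0 of 10 passed (0.0385% of genes called, 1 member with an unadjusted p under 0.05). That member was Slc26a6, at 11.43, 11.91 and 12.73 on arrays 1, 2 and 4 beside wild type at 12.39, 13.62, 13.35 and 13.31, with arrays 3 and 4 within the wild-type range (-0.90 ± 0.29, limma adjusted p = 0.170). It passed without Apc1638N/+ crypt array 3 (-1.15, limma adjusted p = 0.0136) or wild-type crypt array 1 (-1.16, 0.0335). The groups overlapped for all 10 members, while 1.81% of genes did not overlap. In Apc1638N/+ villi 0 of 7 passed (0.0254%, 2 members), with Kcnn4 at 1.07 ± 0.40 and 3 arrays each (9.60, 8.93 and 8.63 beside 7.77, 7.92 and 8.26, limma adjusted p = 0.756) and Slc26a6 at -0.65 ± 0.29. Kcnn4 was 1 of 7 members without overlap there, beside 2.29% of genes.

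In p21-/- crypts 0 of 9 passed, where 5.16% of genes were called, and 2 had an unadjusted p under 0.05. Kcnn4 measured 13.16, 12.98, 12.88 and 12.64, all above the wild-type arrays at 11.27 to 12.40, a difference of 0.92 ± 0.35 (limma adjusted p = 0.112). Slc26a6 had -0.65 ± 0.29 and passed without p21-/- array 4 (-0.98, limma adjusted p = 0.0253). Cftr measured 10.84 to 11.30 beside 11.47 to 12.26 without overlap (-0.67 ± 0.36, limma adjusted p = 0.300). Kcnn4 and Cftr were 2 of 9 members without overlap, where 7.55% of genes had none. In the same crypts 3 of 7 Paneth genes were higher (median 1.48), both lymphocyte genes tested were lower (median -1.73) and 1 of 4 myeloid genes was higher (median 1.07). These arrays also had few measured probe sets, and the part of any of these in the values was not tested. In p21-/- villi 0 of 7 passed (0.0383%, 1 member with an unadjusted p under 0.05). Cftr measured 8.22, 10.19, 10.18 and 10.49 there, 0.78 ± 0.36 above wild type (limma adjusted p = 0.426), and passed without the low array 1 (1.30, limma adjusted p = 0.0410). All 7 tested members overlapped in those villi, where 3.77% of genes did not.

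Wild-type mice on Ain76A appear in both arms, at 3 months and at 1 year, where age, time on the diet and arm cannot be told apart. In crypts 0 of 10 members passed (11.3% of genes called, 3 members with an unadjusted p under 0.05). Kcnq1 measured 11.43 to 11.83 at 1 year and 10.01 to 11.10 at 3 months (1.00 ± 0.34, limma adjusted p = 0.0524), and Kcne3 12.05 to 12.42 and 10.09 to 11.78 (1.28 ± 0.46, 0.0605), both without overlap. Slc26a6 was lower by a mean of 0.81 at 1 year (-0.81 ± 0.29, limma adjusted p = 0.0541), with overlap. Slc26a3 (-0.71 ± 0.40) and Car4 (0.92 ± 0.50) did not overlap either, which makes 4 of 10 members beside 16.6% of genes. Another Slc26a3 probe set gave 0.10 ± 0.33, opposite in sign to the one used and not called. Leaving out wild-type crypt array 1 brought Kcnq1, Kcne3 and Slc26a6 past the threshold (1.04, 1.56 and -1.07, limma adjusted p = 0.0462, 0.0208 and 0.00846). Kcnq1 also passed without array 3 (1.18, limma adjusted p = 0.0396). In villi 0 of 7 passed (16.3%, 1 member), with Cftr at 1.00 ± 0.36 (limma adjusted p = 0.0508), which passed without wild-type villus array 4 (1.37, 0.00917). All 7 tested members overlapped in villi, where 25.3% of genes did not.

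A marker of the distal small intestine differed between the arms. Fabp6, the ileal bile acid binding protein gene, was chosen after its values were seen. It had crypt levels of 13.76 to 15.76 on the 4 wild-type arrays at 3 months, and on Ain76A for 1 year it had a value on 2 of 4 crypt arrays, at 6.97 and 7.68. Fabp6 also differed by tissue at 3 months, with means of 14.85 in crypts and 11.24 in villi of wild type. In p21-/- mice they were 14.85 and 11.61. Its villus values were uneven, at 10.59 to 15.14 in Apc1638N/+ and 9.09 to 13.66 in p21-/- mice. Other listed distal genes showed no such wide gap in crypts. Pyy had a value on 1 of 4 wild-type crypt arrays at 3 months and 0 of 4 on Ain76A for 1 year. In villi Pyy was measured on all 4 arrays of each, at means of 10.71 and 9.62, and was called lower at 1 year. Slc10a2 had a value on 1 of 4 wild-type crypt arrays, at 7.05, and 0 of 4 on Ain76A for 1 year. Of the listed proximal small intestine genes, 4 were tested in each tissue and 0 were called. Their median at 1 year minus 3 months was -0.58 in crypts and -0.65 in villi. Enterocyte genes were lower in the crypts at 1 year in 7 of 11, cell cycle genes higher in 3 of 9, and 6 of 6 lymphocyte genes were lower in villi at 1 year. The part of these markers in the values of Kcnq1, Kcne3, Slc26a6 and Cftr was not tested, nor was that of segment in the crypt minus villus differences.

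Whether the crypt-villus difference itself changed with genotype, diet or arm was tested by the interaction, and 0 of 39 member tests passed (percent of all genes called 0.0144, 1.63, 0, 0.579 and 11.8 for Apc1638N/+, p21-/-, NWD1, NWD2 and arm). At an unadjusted p under 0.05 there were 0, 1, 2, 4 and 1 members. The closest were on NWD2, where the difference of Slc12a2 was smaller by 1.92 than on Ain76A (-1.92 ± 0.61, limma adjusted p = 0.0919) and that of Slc26a6 moved toward 0 by 1.33 ± 0.42 (0.0908). Both passed without NWD2 crypt array 1 (-2.09 and 1.55, limma adjusted p = 0.0430 and 0.0290). The interaction of Cftr in p21-/- mice was -1.45 ± 0.51 (limma adjusted p = 0.118), and it passed without p21-/- villus array 1 (-1.96, 0.0109) or wild-type villus array 4 (-1.82, 0.0433). Cftr also passed in the arm interaction without wild-type villus array 4 (-1.54, limma adjusted p = 0.0412).

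Of 120 other genes of epithelial ion and water transport, 84 had a probe set of that single symbol that passed the filter on low values. On Ain76A for 1 year, 55 could be tested between crypts and villi, of which 9 passed as crypt-high, 28 as villus-high and 18 did not pass (median -0.64, over all genes 0.00). Of all genes tested there, 52.6% were called in either direction. All 9 genes tested of the sodium, proton and scaffold group were higher in villi, among them the NHE3 scaffolds Pdzk1 (-3.52 ± 0.45) and Slc9a3r1 (-1.98 ± 0.24). The guanylin receptor Gucy2c (-1.42 ± 0.28), its ligand Guca2b (-2.47 ± 0.41), the peptide gene Nts (-4.03 ± 0.69), the bicarbonate cotransporter Slc4a4 (-1.16 ± 0.35), carbonic anhydrase Car2 (-1.79 ± 0.38), the goblet cell product Clca1 (-3.30 ± 0.38) and the sodium pump subunit Atp1b1 (-0.64 ± 0.23) were also higher in villi. The water channel Aqp4 (3.63 ± 0.39), Gcg (3.57 ± 0.41) and Clca3b (3.42 ± 0.56) were the largest in crypts. Car2 thus ran opposite to Car4, and the 2 enzymes act in different places, the cytosol and the outer membrane face.

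In wild type at 3 months 8 of 51 listed genes passed with higher levels in crypts and 18 with higher levels in villi, and on NWD2 the counts were 4 and 8 of 59. Of all genes tested, 46.3% were called in wild type and 12.5% on NWD2. In NWD2 crypts against Ain76A, 7 of 56 rose and 2 fell, with a median of -0.04 over the 56 and -0.09 over all genes. There 8.58% of all genes tested were called. Pdzk1 rose by 2.08 ± 0.45, Guca2b by 1.74 ± 0.41, the cGMP-dependent kinase Prkg2 by 1.14 ± 0.30, Gucy2c by 1.04 ± 0.28 and Slc9a3r1 by 0.99 ± 0.24. Clca3a2 fell by 1.42 ± 0.45 and the potassium channel Kcnk1 by 0.89 ± 0.25. Between 1 year and 3 months, 9 of 56 were higher and 10 lower in crypts, among them the kinase Wnk1 (2.07 ± 0.51) and Pdzk1 (-1.82 ± 0.45). In villi 7 of 51 were higher and 4 lower, among them Car2 (-2.01 ± 0.38). Of all genes, 11.3% were called in those crypts and 16.3% in those villi. In p21-/- crypts 0 of 49 rose and 4 fell, where 5.16% of all genes were called. Clca4b stood at -1.29 ± 0.28, the potassium channel Kcnk5 at -1.03 ± 0.30 and the sodium-proton exchanger Slc9a2 at -1.02 ± 0.31. None of the listed genes passed in Apc1638N/+ crypts (0 of 53) or villi (0 of 51), p21-/- villi (0 of 52), NWD1 crypts (0 of 57) or villi (0 of 63) or NWD2 villi (0 of 61), by limma. At an unadjusted p under 0.05 the counts were 11, 3, 13, 3, 6 and 11 in that order. Of all genes, 0.0385%, 0.0254%, 0.0383%, 0%, 0.0563% and 0.399% were called in the same order.

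Over the 12 group means, the genes measured on all arrays with the most similar pattern were Hspd1 for Slc12a2 (r = 0.99), Ewsr1 for Kcnn4 (0.99) and the Wnt receptor Fzd5 for Cftr (0.998). For Kcne3 it was Rrs1 (0.99), for Clca4a the neurotensin gene Nts (0.99), for Slc26a6 Zbtb24 (0.98), for Slc9a3 Apol7a (0.98) and for Car4 Ssr2 (0.98). Slc26a3 had the least similar best match, Ccl25 at 0.94, and Kcnq1 over 11 groups had Ctnnbl1 at 0.95. Next came Mrpl13 and Manf for Slc12a2 (0.99 each), Canx and Cldn12 for Cftr (0.98 each), the brush border cadherin gene Cdhr2 and the amino acid transporter Slc7a9 for Slc26a6 (0.97 each) and Ada and Vdac2 for Clca4a (0.99 each). These are the best of 5084 genes, and the 12 means share the crypt-villus contrast. Within groups, Cftr and Slc26a3 moved together across the 23 villus arrays (r = 0.90) and not across the 24 crypt arrays (r = 0.11). Among the arrays where both were lowest in their group were Apc1638N/+ villus array 3 (8.17 and 10.23) and p21-/- villus array 1 (8.22 and 11.16).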

How the data were processed

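Total RNA (5 µg, per the labels' protocols) from crypts or villi was hybridised to 47 Affymetrix mouse arrays. The deposited values are log2 signals per probe set, with GCOS named in the submitters' processing notes, and the sources do not say how blanks (55.2% of values) arose. They were quantile normalised on 8350 probe sets measured on every array, with other values interpolated along that mapping. Probe sets above the median of their array, with blanks ranked lowest, were kept when this held on at least 3 of the 47 arrays (30287). Where blanks made up most of an array, every measured value lay above that median. Each gene was read from 1 of these by highest mean (13509 genes). A single limma 3.58.1 model (R 4.3.3) over 12 groups, with a variance trend, gave 6 crypt minus villus differences, 10 condition differences and 5 interactions, each with Benjamini-Hochberg adjustment and only for genes measured on 3 arrays in each group. Groups share control arrays, so comparisons against the same controls are not independent.

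The model was tested on simulated data. Members, the named-gene rule (all members, per comparison up to 3 called pathway genes in each direction by size, 9 pathway genes such as Pdzk1, Gucy2c and Car2 wherever measured, and the 3 most similar patterns) and the lists were chosen with earlier results of these data known. The number of arrays limits the precision. Equal replicate numbers paired the arrays by the stated check, every pair's deviations correlating above 0.1, only for crypt against villus on Ain76A (r = 0.133 to 0.290) and on NWD2 (0.285 to 0.487). Alternatives were another scaling, filter, variance prior, probe set rule, treatment of blanks, sample set, a replicate block and leaving out each array. Promoters came from RefSeq (GRCm38.p6). Figures were drawn with matplotlib 3.10.9 in Python 3.11.15.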

Additional observations from a re-analysis of the deposited data

Results flagged for a closer look

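In 94 sets of 4 arrays of a gene and group, 5 had an array whose gap to its nearest neighbour took up an unusually large share of the set's range by Dixon's test, and chance gives about 1 in 20. Kcnn4 was 11.62 on Ain76A crypt array 2, with the next at 12.21. Cftr was 8.22 on p21-/- villus array 1, with the next at 10.18. Cftr was 11.87 on NWD1 crypt array 4, with the next at 11.39. Slc9a3 was 12.70 on wild-type crypt array 1, with the next at 11.55. Clca4a was 10.55 on NWD1 crypt array 3, with the next at 9.35. None of the 39 interaction tests of the members passed.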

How the results depend on the processing

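No called difference of the 10 genes changed sign under any alternative. With no filter, no variance trend, every probe set tested or the probe set measured on most arrays (chosen after seeing the data), all 181 values kept their side of the threshold, and 1 uncalled value changed sign with the last of these. The fit without a filter is a weak check. All 19 probe sets of the members passed the filter, so the same ones were used. The deposited scaling kept the side of 176, setting blanks to the lowest measured value 176, fitting only the groups compared 163 and the replicate block 177, with 7, 3, 0 and 0 uncalled values changing sign. Without wild-type crypt arrays 2 and 4, all 56 values compared kept their side, and 9 uncalled values changed sign. Of 1733 values without an array, 1692 kept their side, 23 lost a call and 18 gained one, and 76 uncalled values changed sign. The cause was not tested.

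Members called in NWD2 crypts became 7 with only the groups compared and 1 with blanks at the lowest value. In NWD2 villi 2 were called with only the groups compared. Between 1-year and 3-month crypts the count was 1 with the deposited scaling, 3 with only the groups compared and 2 with the replicate block. In villi of the same mice it was 1 with the deposited scaling, 1 with blanks at the lowest value and 1 with the probe set measured on most arrays. Interactions gave 1 in p21-/- mice with the deposited scaling, 4 on NWD2 and 1 for the arm with only the groups compared.

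Leaving out each array in turn gave 1 to 5 called between crypts and villi on NWD2 and 0 to 4 in NWD2 crypts. It gave 0 to 1 in Apc1638N/+ crypts, p21-/- crypts, p21-/- villi and villi at 1 year against 3 months, and 0 to 3 in the crypts of that comparison. For interactions it gave 0 to 1 in p21-/- mice and the arm and 0 to 2 on NWD2.

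The replicate block changed no member's call in the 2 paired comparisons. Elsewhere arrays share only a number, and the block brought Kcne3 in NWD2 crypts (limma adjusted p = 0.0446), Kcnq1 and Slc26a6 in 1-year crypts (0.0453 and 0.0407) and Slc26a3 between Apc1638N/+ crypts and villi (0.0490) past the threshold. With blanks at the lowest value, Kcnq1 lost its crypt excess call on NWD1 and NWD2 (limma adjusted p = 0.145 and 0.488), as did Car4 (0.202 and 0.334). Neither gene had a blank on NWD1 or NWD2, and the differences stayed as they were. Only the SE grew, to 0.95 and 1.03 for Kcnq1 and 0.84 and 0.91 for Car4. The model shares 1 spread over the 12 groups, and the blanks filled lay in other groups. Other probe sets differed in sign from the one used in 16 of 114 differences, none of them called.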
